A study of Homo sapiens with 18 samples.

Results

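Breast cancer cells of the established triple-negative line MDA-MB-231 that had been transduced with a lentivirus carrying a control short hairpin RNA (control shRNA) were compared with cells that had received only the solvent DMSO. The comparison rests on 4 of the 10 distinct libraries, 2 of control shRNA and 2 of DMSO, chosen by their labels and not by any measured value. Control shRNA cells were exposed to virus for 24 h and then kept in puromycin at 2 μg/ml for 72 h. DMSO cells, which met neither virus nor puromycin, were treated for 72 h. The other 6 libraries are 2 each of a hairpin against EZH2 (shEZH2), a hairpin against E2F1 (shE2F1), both transduced and selected in the same way, and GSK126, an inhibitor of the EZH2 methyltransferase, at 1 μM for 72 h. Both control groups were meant as the baseline of their own experiment. Virus, hairpin, puromycin, DMSO, the length of culture and the experiment itself differ together between the groups, so that none of these can be told apart from another. A control hairpin has no intended target in the cell, but it is 1 construct, and the selected cells are a pool of integrations. In bulk RNA, fewer cells of a kind and less RNA per cell cannot be told apart either.

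Cells answer a lentivirus through sensors of foreign nucleic acid, which switch on interferon and the genes it stimulates. Puromycin is an analogue of a charged tRNA that ends nascent peptides early and kills cells without the resistance gene. Immediate early genes are transcribed within minutes of a growth factor, serum or stress signal without new protein synthesis. The integrated stress response, through the factor ATF4, and the unfolded protein response of the endoplasmic reticulum adjust amino acid supply and protein folding, and the SREBP factors switch on sterol and fatty acid synthesis when membranes run short of sterol.

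Total expected counts were 19491509 and 17790706 for control shRNA replicates 1 and 2 and 20055550 and 18398902 for DMSO replicates 1 and 2, and a count of 0 allowed up to 0.150 to 0.169 CPM, which are counts relative to the TMM-scaled library size. The cells carried the profile of the line in both groups, with VIM, the mesenchymal intermediate filament, at 3217 and 3522 CPM in control shRNA and 2864 and 3490.0 CPM in DMSO. ESR1 and PGR, the hormone receptors that the line lacks, were at 0 counts in 3 and 4 of these 4 libraries, and FOXA1 in 3. They come from a list of 12 markers of MCF7 or luminal cells, of which 7 were expressed enough to be tested. The list summed to 3238 and 2939 CPM in control shRNA and 3096 and 3458 CPM in DMSO. The 7 had a median log2 change of -0.33, with 0 called and 2 lower at an adjusted p under 0.05. LIN28B, PAX2, NEFL and NEFM, from a list of 6 markers of the HEK293T cells in which the virus was made, were at 0 counts in all 4 libraries. The other 2 members were expressed in both groups and not called, among them ZIC2, a developmental factor, at 8.9 and 12.1 CPM in control shRNA and 7.12 and 6.1 CPM in DMSO (adjusted p = 0.0826). The root mean square difference between libraries over genes was 0.271 on the log2 scale within control shRNA and 0.272 within DMSO. Between the groups it was 0.317 to 0.489, and DMSO stood nearer to control shRNA replicate 1 than to replicate 2. Fragments were shorter in replicate 2 of each group, at a mean of 163 against 179 bases in control shRNA and 175 against 205 bases in DMSO. The labels do not say whether replicates were separate cultures, so p-values measure the spread between these libraries, which may be technical.

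Of 14655 genes tested, 216 (1.47%) were called, that is, differed over 2-fold at an adjusted p below 0.01. In control shRNA, 170 (1.16%) were lower and 46 (0.314%) were higher. All of the called genes had both libraries of a group beyond both of the other, which the call itself favours. At an adjusted p under 0.05 with no limit on the fold, 679 genes (4.63%) were lower and 375 (2.56%) were higher. Without control shRNA replicate 1, the library nearer to DMSO, 509 genes were called, and DESeq2 called 141. Of the 216, 57 were called under all alternatives run on this comparison, 51 of them lower. The called genes were 196 protein-coding genes and 20 others, and 13 of the 46 higher genes had a mean under 3 CPM in both groups.

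**Figure D1:**
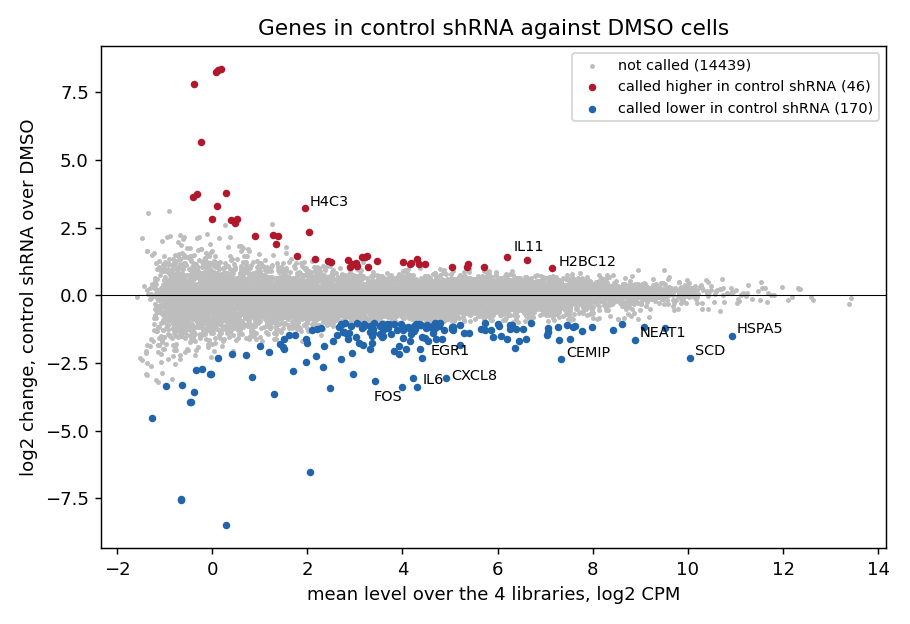
Log2 change in control shRNA against DMSO (y axis) for 14655 genes by their mean level in log2 CPM over the 4 libraries (x axis), with called genes in red (46 higher) and blue (170 lower). Among abundant genes the called ones lie mostly below the line, HSPA5 and SCD among them, while the largest increases are of genes with few counts.

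The targets of the other hairpins were read at their baseline. Neither the control hairpin nor DMSO is aimed at them, so their levels here cannot check the labels. EZH2, the catalytic subunit of Polycomb repressive complex 2, stood at 153 and 181 CPM in control shRNA and 123 and 126 CPM in DMSO, a log2 change of 0.41 ± 0.15 (SE), adjusted p = 0.0932. E2F1, a transcription factor of the cell cycle, stood at 143 and 138 CPM in control shRNA and 83.7 and 108.5 CPM in DMSO, with a log2 change of 0.54 ± 0.15 (SE), adjusted p = 0.031. For both, the 2 control shRNA libraries lay above the 2 DMSO libraries, but neither was called. SUZ12 and EED, the partners of EZH2 in that complex, changed by 0.35 and 0.35 on the log2 scale and were not called either. As a ratio, control shRNA stood at 1.33 times DMSO for EZH2 and 1.46 times for E2F1.

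Most immediate early genes tested were lower in control shRNA, several of them by far. Of 22 tested, 10 were called lower and none higher, against 1.16% of all genes, and their median log2 change was -0.81 against a median of 0.00 over all genes. At an unadjusted p under 0.05, 15 were lower and 3 higher, where 12.6% of all genes were lower and 9.59% higher. FOS (ENSG00000170345, GRCh38 chromosome 14, 75278826 to 75282230, plus strand), the founding subunit of the AP-1 transcription factor, stood at 2.97 and 2.58 CPM in control shRNA and 20.9 and 37.4 CPM in DMSO. The groups lay far apart, with a log2 change of -3.39 ± 0.26 (SE), adjusted p = 3.16e-08. FOSB, its close relative, stood at 0.901 and 1.02 CPM in control shRNA and 6.77 and 13.7 CPM in DMSO, a log2 change of -3.41 ± 0.35 (SE), adjusted p = 1.46e-06. The 2 DMSO libraries lay apart from each other, but control shRNA lay under both. EGR1 (ENSG00000120738, GRCh38 chromosome 5, 138465479 to 138469303, plus strand), a zinc-finger factor induced by serum, stood at 7.15 and 7.08 CPM in control shRNA and 19.9 and 50.4 CPM in DMSO, with a log2 change of -2.31 ± 0.28 (SE), adjusted p = 1.77e-05.

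The nuclear receptors NR4A1 and NR4A2, which need no ligand and are regulated by their own transcription, moved likewise. NR4A2 stood at 2.38 and 1.92 CPM in control shRNA and 21.8 and 16.7 CPM in DMSO, a log2 change of -3.16 ± 0.24 (SE), adjusted p = 3.16e-08. NR4A1 stood at 3.55 and 2.1 CPM in control shRNA and 9.03 and 16 CPM in DMSO, a log2 change of -2.13. ATF3, a stress-induced repressor, stood at 4.77 and 6.24 CPM in control shRNA and 21.6 and 24.2 CPM in DMSO, a log2 change of -2.07 ± 0.20 (SE), adjusted p = 8.37e-07. Brakes on the same signals were lower too. DUSP1, a phosphatase that turns off MAP kinases, stood at 29.5 and 41.3 CPM in control shRNA and 80.9 and 116 CPM in DMSO, a log2 change of -1.49. ZFP36, which speeds the decay of cytokine mRNAs, stood at 16.2 and 16 CPM in control shRNA and 29.5 and 40 CPM in DMSO, a log2 change of -1.11. The AP-1 subunits JUNB and JUND were called at -1.11 and -1.25, whereas JUN stood at 244 and 236 CPM in control shRNA and 218 and 258 CPM in DMSO with a log2 change of 0.01 ± 0.15 (SE), adjusted p = 0.984. MYC missed the fold at -0.73. In DMSO, replicate 2 lay above replicate 1 for 21 of the 22 genes, and the list's median in control shRNA, relative to the DMSO mean, was -0.82 and -0.75 in the 2 libraries. Changes were below 0 for 18 and above 0 for 4 of the 22, up to 0.93. The whole list summed to 3731 and 3833 CPM in control shRNA and 3872 and 4781 CPM in DMSO, a sum in which abundant members weigh most. With GSK126 in place of DMSO, 9 genes were called lower and 1 higher. The median over all alternatives ran from -0.95 to -0.64. Genes on the other strand cover 14.2% of the exon bases of JUNB and 10.3% of those of NR4A1, and since the counting is not stated to use strand, reads of such partners cannot be told apart here or below.

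The promoters of EGR1 and DUSP1 are shown because their sites for signal-responsive factors are textbook examples (RefSeq, GRCh38.p14, bases before the start of transcription). In EGR1 (chr5:138465329-138465478, plus strand) the capitals mark 2 CArG boxes, the binding letters of serum response factor. In DUSP1 (chr5:172771196-172771345, minus strand) they mark TGACGTCA, the cAMP response element.
EGR1 promoter: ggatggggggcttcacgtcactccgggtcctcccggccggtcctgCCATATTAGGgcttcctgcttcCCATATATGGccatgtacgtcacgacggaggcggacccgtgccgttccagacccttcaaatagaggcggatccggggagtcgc
DUSP1 promoter: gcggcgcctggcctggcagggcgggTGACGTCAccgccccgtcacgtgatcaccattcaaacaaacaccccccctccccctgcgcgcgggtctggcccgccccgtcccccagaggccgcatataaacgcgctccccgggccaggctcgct
Within 250 bases before the start, a CArG box lay in 1.45% and TGACGTCA in 3.46% of the 10747 tested genes that have a promoter entry, read on both strands. Among the 9 called immediate early genes with an entry, EGR1 alone held the first, and DUSP1 and JUND the second. A match describes letters only.

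Several cytokine genes were among the most reduced. Of 28 tested genes for cytokines, chemokines and other NF-kB targets, 6 were called lower and 1 higher, against 1.16% and 0.314% of all genes. The median log2 change was -0.60. At an unadjusted p under 0.05 there were 19 lower and 1 higher, where 12.6% and 9.59% of all genes were. IL6 (ENSG00000136244, GRCh38 chromosome 7, 22725884 to 22732002, plus strand), the inflammatory cytokine, stood at 3.87 and 3 CPM in control shRNA and 35.5 and 37 CPM in DMSO, a log2 change of -3.40 ± 0.21 (SE), adjusted p = 8.50e-10 and no overlap between the groups. Genes on the other strand cover 9.91% of its exon bases. CXCL8 (ENSG00000169429, GRCh38 chromosome 4, 73740519 to 73743716, plus strand), the neutrophil chemokine interleukin-8, stood at 4.08 and 9.12 CPM in control shRNA and 60.8 and 46 CPM in DMSO, a log2 change of -3.04 ± 0.25 (SE), adjusted p = 5.74e-08. CXCL2, a related chemokine, stood at 1.48 and 1.68 CPM in control shRNA and 6.47 and 8.42 CPM in DMSO, a log2 change of -2.24, and 13.4% of its 50-base stretches occur in CXCL3, CXCL1 or another gene. The colony-stimulating factors CSF1 and CSF2, growth factors of macrophages and granulocytes, and ICAM1, the adhesion molecule, were called at -1.29, -1.69 and -1.27. CSF1 stood at 258 and 142 CPM in control shRNA and 505 and 472 CPM in DMSO, with replicate 1 of control shRNA nearer to DMSO. Genes on the other strand cover 25.4% of the exon bases of ICAM1. The inhibitors that NF-kB itself induces were not called, with NFKBIA at -0.40 (adjusted p = 0.12) and TNFAIP3 at -0.10 (adjusted p = 0.807).

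IL11, a cytokine of the IL6 family, went the other way. It stood at 147 and 134 CPM in control shRNA and 50.7 and 64 CPM in DMSO, with both control shRNA libraries more than 2-fold above both DMSO libraries and a log2 change of 1.29 ± 0.15 (SE), adjusted p = 1.13e-05. EREG, which encodes the EGF receptor ligand epiregulin, stood at 19.1 and 13 CPM in control shRNA and 64.7 and 50.4 CPM in DMSO, a log2 change of -1.84 ± 0.19 (SE), adjusted p = 1.18e-06. Its neighbour on chromosome 4, AREG, which encodes the ligand amphiregulin and was picked after its values were seen, was at 51.6 and 43.9 CPM in control shRNA and 155 and 134 CPM in DMSO, a change of -1.61. GDF15, a circulating stress hormone, stood at 4.77 and 3.18 CPM in control shRNA and 24.8 and 42.2 CPM in DMSO, a log2 change of -3.07 ± 0.25 (SE), adjusted p = 5.74e-08.

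CXCL2 is shown for the NF-kB site close to its start (chr4:74099196-74099345, minus strand, site in capitals, where matches on the 2 strands overlap).
CXCL2 promoter: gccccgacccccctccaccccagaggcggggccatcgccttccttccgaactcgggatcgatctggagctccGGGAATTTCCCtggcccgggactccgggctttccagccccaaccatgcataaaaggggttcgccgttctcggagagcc
An NF-kB site lay in 13 of the 23 tested genes of this list with a promoter entry (56.5%) and in 15.6% of all tested genes. Of the 5 called lower with an entry, CXCL2 and IL6 held a site.

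**Figure D2:**
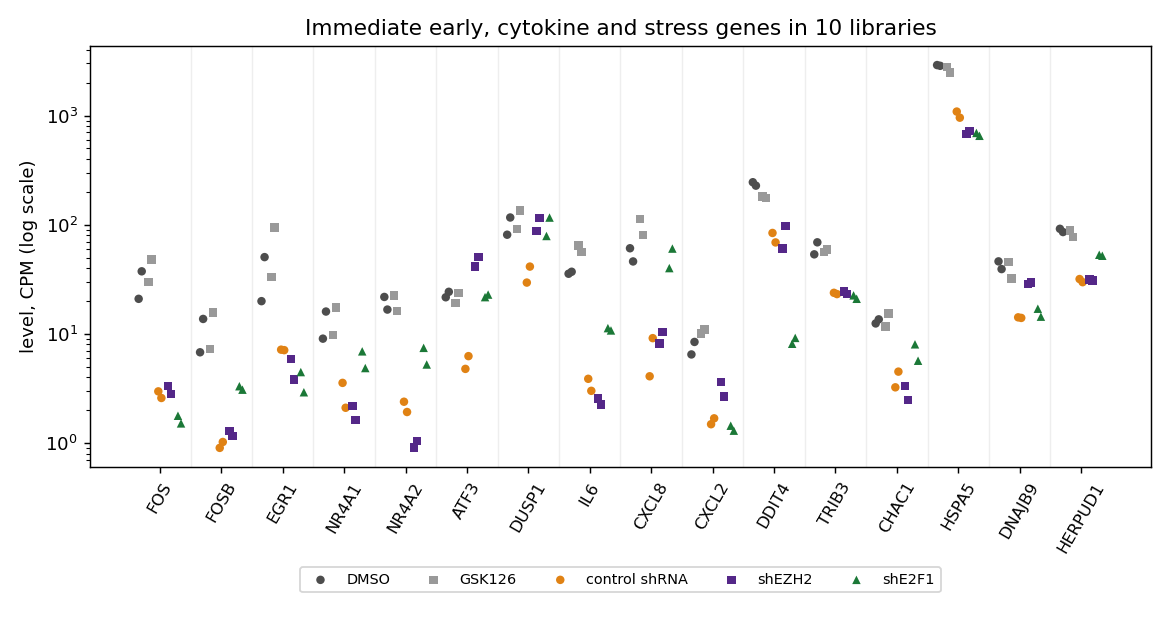
Level in CPM (log axis) of 16 immediate early, cytokine and stress genes in 10 libraries, with a point for each library and a symbol for each group. Control shRNA (orange) lies under DMSO (dark grey) for every gene, while the knockdown libraries lie with or under control shRNA for FOS, EGR1 and HSPA5 and with DMSO or above for ATF3 and DUSP1.

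Several genes of the integrated stress response were lower in control shRNA. Of 27 tested genes, 7 were called lower and none higher, against 1.16% and 0.314% of all genes, with a median log2 change of -0.55. At an unadjusted p under 0.05 there were 20 lower and 2 higher, where 12.6% and 9.59% of all genes were. DDIT4 (ENSG00000168209, GRCh38 chromosome 10, 72273919 to 72276036, plus strand), an inhibitor of the growth kinase mTORC1, stood at 83.9 and 68.7 CPM in control shRNA and 245 and 228 CPM in DMSO, a log2 change of -1.64 ± 0.15 (SE), adjusted p = 4.84e-07. TRIB3, a pseudokinase that restrains AKT and ATF4, stood at 23.7 and 23.1 CPM in control shRNA and 53.5 and 68.9 CPM in DMSO, a log2 change of -1.39 ± 0.16 (SE), adjusted p = 8.98e-06. CHAC1, which degrades glutathione, stood at 3.23 and 4.5 CPM in control shRNA and 12.4 and 13.6 CPM in DMSO, a log2 change of -1.76. CEBPB, SESN2, ADM2 and NUPR1 made up the 7, at -1.06, -1.18, -2.79 and -3.93. Genes on the other strand cover 12.6% of the exon bases of CEBPB. NUPR1, a small chromatin-binding stress protein, rests on 2 and 1 counts in control shRNA against 18 and 33 in DMSO. Other classical readouts had an adjusted p under 0.01 but missed the 2-fold limit. ASNS, asparagine synthetase, stood at 39.9 and 60.4 CPM in control shRNA and 85.2 and 100.3 CPM in DMSO. DDIT3, the death-promoting factor CHOP, stood at 15.9 and 16 CPM in control shRNA and 30 and 31.3 CPM in DMSO. ATF4 mRNA itself changed by -0.32 ± 0.15 (SE), adjusted p = 0.205. SLC6A9, a glycine transporter outside this list, stood at 9.01 and 7.86 CPM in control shRNA and 34.4 and 31.4 CPM in DMSO, a log2 change of -1.97 ± 0.18 (SE), adjusted p = 4.84e-07.

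Genes for protein folding in the endoplasmic reticulum were lower. Of 25 tested, 6 were called lower and none higher, where 1.16% of all genes were called lower. At an adjusted p under 0.05, 16 were lower, against 4.63% of all genes, and the median log2 change was -0.54. HSPA5 (ENSG00000044574, GRCh38 chromosome 9, 125234853 to 125241382, minus strand), the chaperone BiP and the most abundant of these transcripts by count, stood at 1087 and 955 CPM in control shRNA and 2899 and 2854 CPM in DMSO. The 2 libraries of each group lay close together, and the log2 change was -1.50 ± 0.15 (SE), adjusted p = 6.89e-07. DNAJB9, a cochaperone that BiP works with, stood at 14.2 and 14 CPM in control shRNA and 46.1 and 39.2 CPM in DMSO, a log2 change of -1.61 ± 0.17 (SE), adjusted p = 2.06e-06. HERPUD1, of the pathway that disposes of misfolded proteins, stood at 31.7 and 29.7 CPM in control shRNA and 91.6 and 85.6 CPM in DMSO, a log2 change of -1.53 ± 0.15 (SE), adjusted p = 7.37e-07. EIF2AK3, the stress-sensing kinase PERK, CREB3L2, a membrane-bound transcription factor, and ERO1B, an oxidase for disulfide bonds, were called at -1.10, -1.03 and -1.03. Members that were not called, XBP1 and HSP90B1, were at -0.73 and -0.54. The 25 genes had 24 changes below 0 and 1 above. Without DMSO replicate 1 the count of called genes was 3, and the median over all alternatives ran from -0.58 to -0.49. A GC content and length correction gave 4. HSPA1A and HSPA1B, which encode the inducible HSP70 of the cytosol, were called at -1.61 and -1.07, the only 2 of 22 genes for cytosolic chaperones, whose median was 0.04. They share 73.7% of their 50-base stretches with each other or another gene, so the split between them is uncertain.

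The promoters of HSPA5 and CHAC1 carry the sites for which these responses are known. In HSPA5 (chr9:125241344-125241493, minus strand) the capitals mark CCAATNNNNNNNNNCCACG, the ER stress response element. In CHAC1 (chr15:40953242-40953391, plus strand) they mark TTGCATCA, a C/EBP-ATF composite element.
HSPA5 promoter: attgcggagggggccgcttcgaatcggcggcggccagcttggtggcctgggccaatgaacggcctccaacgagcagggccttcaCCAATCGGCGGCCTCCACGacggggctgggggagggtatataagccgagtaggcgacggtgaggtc
CHAC1 promoter: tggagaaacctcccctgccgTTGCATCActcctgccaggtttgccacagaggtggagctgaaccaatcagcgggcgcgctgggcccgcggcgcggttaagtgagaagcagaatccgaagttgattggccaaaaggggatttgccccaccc
The first element lay in 8 of the 25 tested genes of the folding list (HSPA5, HSP90B1, PDIA6, CALR, CANX, XBP1, CRELD2 and ERO1B) and in 0.149% of all tested genes. Only 2 of those 8 were called. The second lay in 3 of 24 genes of the stress response list (CHAC1, CEBPG and AARS1) and in 0.54% of all tested genes.

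Sterol synthesis was lower, and the 2 control shRNA libraries disagreed on how much. Of 25 tested genes for cholesterol synthesis and uptake, 7 were called lower and none higher, where 1.16% of all genes were called lower. At an adjusted p under 0.05, 20 were lower, against 4.63% of all genes, and the median log2 change was -0.80. Relative to the DMSO mean the median was -0.51 and -1.08 in control shRNA replicates 1 and 2. Replicate 2 lay under replicate 1 for 24 of the 25 genes, while the 2 DMSO libraries split 13 to 12. Without control shRNA replicate 2 a single gene of the list was called and without replicate 1 there were 15, and without DMSO replicate 1 there were 4. A correction for GC content and length left 2. The median stayed below 0 throughout, from -1.11 to -0.51. HMGCS1 (ENSG00000112972, GRCh38 chromosome 5, 43287470 to 43313512, minus strand), which makes the precursor of mevalonate, stood at 55.6 and 35.9 CPM in control shRNA and 113 and 103 CPM in DMSO, a log2 change of -1.24 ± 0.17 (SE), adjusted p = 9.18e-05, and 37.7% of its exon bases lie under a transcript of the other strand. DHCR7, which makes cholesterol in the last step of the pathway, stood at 115 and 74 CPM in control shRNA and 194 and 230.5 CPM in DMSO, a log2 change of -1.17. MSMO1 and HSD17B7, which act on sterols before it, were called at -1.11 and -1.06. INSIG1, which holds SREBP in the endoplasmic reticulum, stood at 195 and 55.5 CPM in control shRNA and 325 and 306 CPM in DMSO, a log2 change of -1.33 ± 0.30 (SE), adjusted p = 0.00852. It was not called in 8 alternatives, DESeq2 and the fits without control shRNA replicate 2, DMSO replicate 1 or DMSO replicate 2 among them. STARD4, a sterol carrier, was called at -1.23.

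Fatty acid genes were lower. Replicate 2 lay under replicate 1 for 14 of 20 genes in control shRNA and likewise for 14 in DMSO. The median gap was -0.25 in control shRNA and -0.09 in DMSO on the log2 scale. Of the 20 tested, 5 were called lower and 1 higher, against 1.16% and 0.314% of all genes, and the median log2 change was -0.67. SCD (ENSG00000099194, GRCh38 chromosome 10, 100347233 to 100364826, plus strand), the desaturase that makes monounsaturated fatty acids, stood at 563 and 149 CPM in control shRNA and 1908 and 1602 CPM in DMSO, a log2 change of -2.31 ± 0.33 (SE), adjusted p = 1.11e-04. The control shRNA libraries differed from each other by more than replicate 1 differed from DMSO. FASN, fatty acid synthase, stood at 574 and 319 CPM in control shRNA and 1074 and 953 CPM in DMSO, a log2 change of -1.19. FADS2, a desaturase of polyunsaturated chains, and ACSS2, which makes acetyl-CoA from acetate, were called at -1.16 and -1.13. ANGPTL4, an inhibitor of lipoprotein lipase, was called at -1.15. DGAT2, which makes storage triglyceride, was the gene called higher, at 11.9 and 10.4 CPM in control shRNA and 5.06 and 5.59 CPM in DMSO. Without control shRNA replicate 2, and by DESeq2, 2 of these genes were called lower, and DGAT2 was not called by DESeq2, with the effective length offset, or without control shRNA replicate 1, DMSO replicate 1 or DMSO replicate 2. SREBF1 and SREBF2, which encode the SREBP factors, were at -0.92 and -0.90, with adjusted p of 0.00865 and 0.00333, under the fold limit.

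A feature that the sterol and folding lists share is the NF-Y box, CCAAT, in the promoter. HMGCS1 is shown (chr5:43313438-43313587, minus strand), with the box in capitals, here on the other strand as ATTGG.
HMGCS1 promoter: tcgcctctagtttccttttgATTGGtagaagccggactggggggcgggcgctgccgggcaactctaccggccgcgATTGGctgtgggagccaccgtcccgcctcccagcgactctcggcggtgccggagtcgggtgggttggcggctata
The box lay in 16 of the 18 tested sterol genes with an entry (88.9%) and in 22 of the 25 folding genes (88%), against 41.4% of all tested genes. All 6 called genes with an entry in each list held it. It was also in 15 of the 24 integrated stress response genes with an entry (62.5%). The share was 41.2% in the immediate early, 43.5% in the cytokine and 47.1% in the fatty acid genes. The first letters of the ER stress response element are this box, so the 2 counts overlap.

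**Figure D3:**
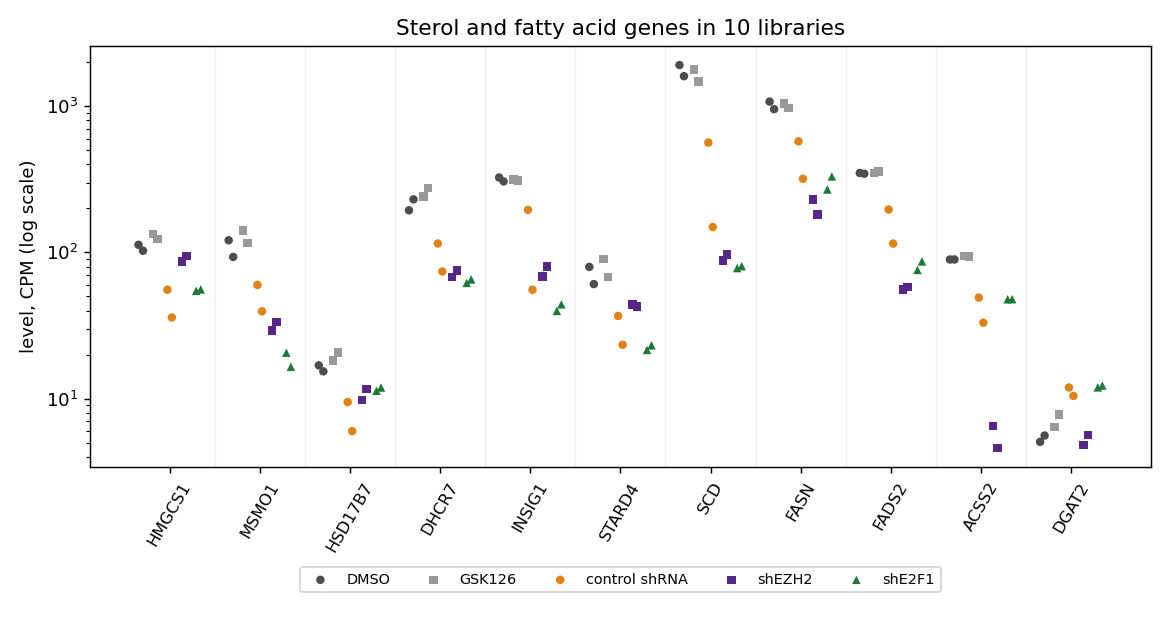
Level in CPM (log axis) of 6 sterol and 5 fatty acid genes in 10 libraries, with a point for each library and a symbol for each group. Control shRNA (orange) lies under DMSO (dark grey) for all but DGAT2, its 2 points are spread widest for SCD and INSIG1, and GSK126 (light grey) lies with DMSO.

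Hypoxia targets had 6 of 27 called lower and none higher, against 1.16% and 0.314% of all genes, with a median log2 change of -0.46. DDIT4 and ANGPTL4, named above, were 2 of the 6. VEGFA, the angiogenic growth factor, stood at 129 and 117 CPM in control shRNA and 262 and 278 CPM in DMSO, a log2 change of -1.14 ± 0.15 (SE), adjusted p = 3.06e-05. CA12, a carbonic anhydrase, BHLHE40, a transcriptional repressor, and LOX, which crosslinks collagen, were called at -1.39, -1.36 and -1.02. With an offset for effective length 3 were called, and without DMSO replicate 2 there were 4. In BHLHE40, 12.8% of exon bases lie under a gene of the other strand. Glycolysis, a classical arm of the same response, had 5 of 22 genes lower and 0 higher at an unadjusted or adjusted p under 0.05. At the adjusted limit, 4.63% of all genes were lower and 2.56% higher. Of the 22, edgeR and DESeq2 called 0, with a median of -0.04. Of these, 2 were called lower without control shRNA replicate 1 and a single one without DMSO replicate 1. Of 25 targets of p53, which is mutant in this line, 3 were called lower and none higher. They were GDF15, SESN2 and BBC3 (the death activator PUMA, -1.37), while CDKN1A and MDM2 were at -0.56 and -0.81. The list had 14 changes below 0 and 11 above, up to 0.91, with a median of -0.17. At an unadjusted p under 0.05, 6 were lower and 5 higher, where 12.6% and 9.59% of all genes were. With GSK126 in place of DMSO, 1 was called lower and 1 higher. NEAT1, the long RNA that scaffolds paraspeckles, stood at 275 and 187 CPM in control shRNA and 777 and 654 CPM in DMSO, a log2 change of -1.64 ± 0.17 (SE), adjusted p = 2.42e-06. MALAT1, its neighbour on chromosome 11, was at 0.26. HMOX1, heme oxygenase, and ABCC3, an efflux pump, were the 2 of 25 oxidative stress genes called, at -1.11 and -1.01. HMOX1 was not called in 3 alternatives and ABCC3 in 6. CLDN1 and CLDN7, claudins of tight junctions, were the 2 of 21 epithelial junction genes, at -1.17 and -1.26, and ITGA10, a collagen-binding integrin subunit, the 1 of 18 integrins, at -1.77.

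Interferon-stimulated genes did not move together at this time, after 24 h of virus and 72 h of puromycin. Of 38 interferon-stimulated genes tested, none was called higher and GBP2, an interferon-induced GTPase, was called lower, at 13.2 and 8.76 CPM in control shRNA and 40 and 30.8 CPM in DMSO and a log2 change of -1.69 ± 0.20 (SE), adjusted p = 1.18e-05. At an unadjusted p under 0.05, 7 were higher and 9 lower, where 9.59% and 12.6% of all genes were. Without control shRNA replicate 1, 4 were called lower, and without DMSO replicate 2 there were 2. The median was -0.09, which other settings moved between -0.25 and 0.02. IFIT1, which binds foreign RNA, stood at 76.2 and 72 CPM in control shRNA and 59.6 and 49.9 CPM in DMSO (adjusted p = 0.0845). ISG15, the ubiquitin-like modifier, stood at 92.3 and 66.4 CPM in control shRNA and 69.1 and 88.6 CPM in DMSO (adjusted p = 0.991), and the libraries of the groups overlapped. MX1, an antiviral GTPase, had a log2 change of 0.19 ± 0.24 (SE), adjusted p = 0.69. Of 18 nucleic acid sensors, 20 retroviral restriction factors and 20 genes of interferon signalling, edgeR and DESeq2 called 0, 0 and 0. At an unadjusted p under 0.05 there were 1 higher and 1 lower sensors, 1 and 4 restriction factors, and 0 and 2 signalling genes. A single signalling gene was called lower without control shRNA replicate 1. RIGI, a sensor of viral RNA, stood at 60.4 and 43.2 CPM in control shRNA and 66 and 48.4 CPM in DMSO, with the groups overlapping.

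The machinery on which the hairpin and puromycin act was likewise without calls. Of 16 genes for hairpin processing and RNA interference, edgeR and DESeq2 called 0, with 6 higher and 0 lower at an unadjusted p under 0.05 (9.59% and 12.6% of all genes) and a median of 0.24. DICER1, which cuts the hairpin, stood at 142 and 148 CPM in control shRNA and 126 and 102 CPM in DMSO, and AGO2, which carries the guide strand, had a log2 change of 0.24 ± 0.14 (SE), adjusted p = 0.339. Of 76 ribosomal protein genes 0 were called by either tool, with 3 higher and 1 lower at an unadjusted p under 0.05. The change was above 0 for 74 of the 76, with a median of 0.18 that ran from 0.00 to 0.38 under the alternatives. Of 19 genes of ribosome quality control and 31 of the proteasome, 0 were called by either tool. At an unadjusted p under 0.05, 1 and 5 were higher and 2 and 0 lower. The change was above 0 for 13 of the 19 and 29 of the 31, with medians of 0.06 and 0.18. Ribosome biogenesis had a median of 0.40, with 0 of 30 called by either tool, 23 higher and 0 lower at an unadjusted p under 0.05, and 4 higher at an adjusted p under 0.05. A single one of them was called higher without control shRNA replicate 1 and without DMSO replicate 2. Of 17 tested genes for drug efflux and for the handling of DMSO or puromycin, ABCC3 was the 1 called, and it was lower. It was not called in 6 alternatives, among them all 10 libraries in 1 fit and the GC content and length correction. The largest rise in the list, of 1.69, was not called. Another scaling, other filters and the replicate block called 1 or 2 genes of the list higher. ABCB1, the pump that exports puromycin, was at 0 counts in all 4 libraries.

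**Figure D4:**
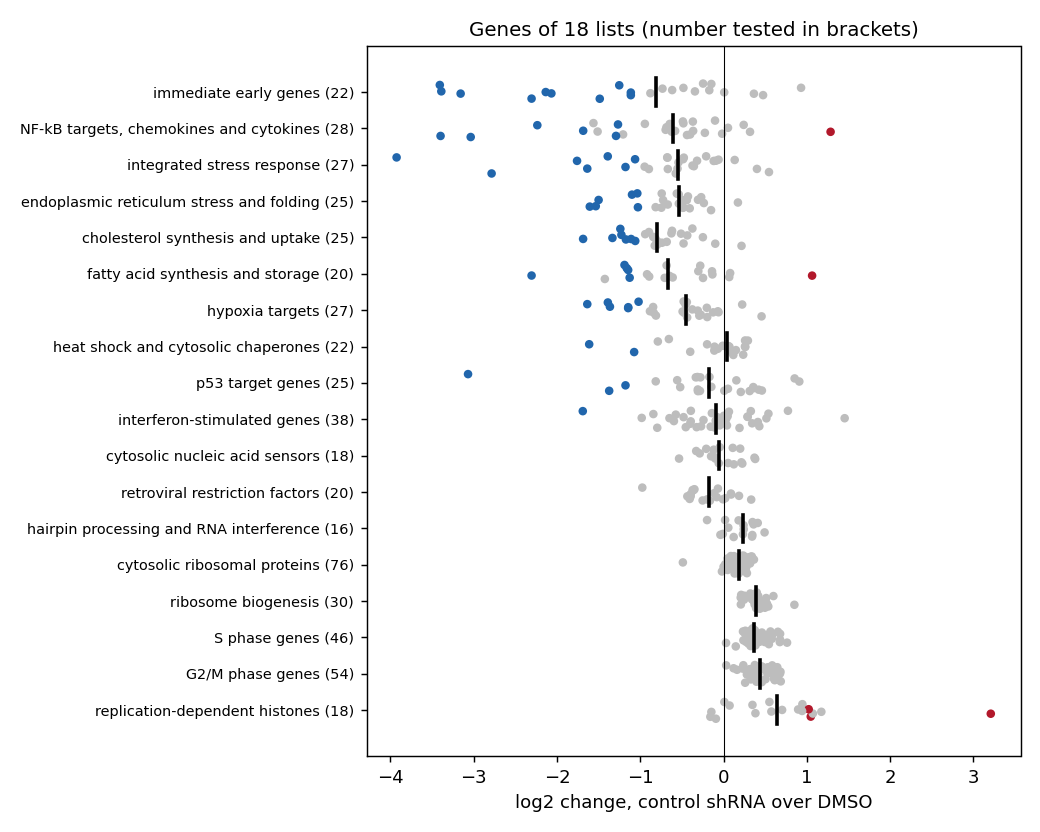
Log2 change in control shRNA against DMSO (x axis) for the genes tested in 18 lists (y axis), with called genes in blue (lower) or red (higher), other genes in grey, and a bar at each list's median. The first 7 lists have medians from -0.81 to -0.46, the antiviral lists lie around 0, and all S and G2/M phase genes lie to the right of 0.

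Cell cycle genes lay a little above DMSO in control shRNA without passing the 2-fold limit. Of 46 S phase genes, edgeR and DESeq2 called 0, with 34 higher and 0 lower at an unadjusted p under 0.05 (9.59% and 12.6% of all genes), 12 higher at an adjusted p under 0.05 (2.56% of all genes), and a median of 0.37. Of 54 G2/M phase genes they also called 0, with 45 higher and 0 lower at an unadjusted p under 0.05, 23 at an adjusted p under 0.05, and a median of 0.44. The change was above 0 for 46 of 46 and 54 of 54, and the medians stayed above 0 under every alternative, from 0.31 to 0.46 and from 0.33 to 0.51. TOP2A, the topoisomerase that untangles chromosomes, stood at 864 and 1069 CPM in control shRNA and 614 and 584 CPM in DMSO, a log2 change of 0.68 ± 0.15 (SE), adjusted p = 0.00696. MKI67, the proliferation antigen Ki-67, stood at 775 and 863 CPM in control shRNA and 598 and 596 CPM in DMSO, with an adjusted p of 0.0621.

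Replication-dependent histone transcripts, which are made in S phase and end in a stem-loop in place of a poly(A) tail, were higher. Of 49 listed, 18 passed the filter on low counts and 3 of those were called higher and none lower, against 0.314% of all genes, with a median of 0.64. The effective length offset, the GC content and length correction, and the fit without DMSO replicate 1 each called 2 higher, and GSK126 in place of DMSO called 7. Without either control shRNA library in turn, 1 was called lower. H2AC6 stood at 71.9 and 69 CPM in control shRNA and 33.2 and 34.6 CPM in DMSO, a log2 change of 1.05 ± 0.15 (SE), adjusted p = 9.36e-05. H2BC12 stood at 194 and 183 CPM in control shRNA and 80.6 and 104 CPM in DMSO, a log2 change of 1.02, and was not called in 5 alternatives, among them those without control shRNA replicate 1 and without DMSO replicate 1. H4C3 stood at 5.62 and 8.34 CPM in control shRNA and 0.802 and 0.678 CPM in DMSO, a change of 3.21. H2AC18, which the list does not hold, stood at 29.9 and 26.7 CPM in control shRNA and 15.2 and 6.67 CPM in DMSO, a change of 1.35. Its 50-base stretches all occur in H2AC19 or H2AC20, and 57.2% of those of H2BC12 occur in H2BC12L or another gene. Other RNAs without a poly(A) tail summed to 99.5 and 97.8 CPM in control shRNA and 50.5 and 62.6 CPM in DMSO over a list of 22, of which 5 were tested and 0 called by edgeR and by DESeq2 (3 higher and 0 lower at an unadjusted p under 0.05, and 2 called higher without DMSO replicate 2). Among them RN7SL2, the RNA of the signal recognition particle, stood at 37.9 and 39.1 CPM in control shRNA and 19 and 21.5 CPM in DMSO. The libraries were made from poly(A) RNA, and the part of RNA without a tail in the histone result was not tested.

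Other genes with large changes had varied functions. CEMIP (ENSG00000103888, GRCh38 chromosome 15, 80779343 to 80951776, plus strand), which breaks down hyaluronan, stood at 71.5 and 34.1 CPM in control shRNA and 282 and 259.5 CPM in DMSO, a log2 change of -2.36 ± 0.22 (SE), adjusted p = 4.84e-07. RCAN1, an inhibitor of the phosphatase calcineurin and itself induced by calcium, stood at 32.7 and 36.4 CPM in control shRNA and 143 and 120.1 CPM in DMSO, a log2 change of -1.94 ± 0.15 (SE), adjusted p = 5.71e-08. LBH, a transcriptional cofactor of the mammary lineage, was at -2.17, LIPG, endothelial lipase, at -1.98, and LRATD2 at -1.89. LIPG stood at 10.2 and 3.36 CPM in control shRNA and 27.6 and 26.3 CPM in DMSO, with control shRNA replicate 2 well under replicate 1. In LRATD2, 24.6% of exon bases lie under PCAT1 on the other strand.

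Among higher genes, LRRC61 (ENSG00000127399, GRCh38 chromosome 7, 150323263 to 150338156, plus strand) stood at 119.8 and 93.5 CPM in control shRNA and 37.8 and 41.4 CPM in DMSO, a log2 change of 1.43 ± 0.16 (SE), adjusted p = 3.86e-06. ZBED10P, at the same locus, rose with it by 1.16, and 24.3% of the 50-base stretches of LRRC61 and 13% of those of ZBED10P are found in each other or another gene. In the knockdowns against GSK126 they changed by -0.86 and 0.70. PIK3R3, a regulatory subunit of PI3-kinase, stood at 15.1 and 16.3 CPM in control shRNA and 6.82 and 6.22 CPM in DMSO, a log2 change of 1.26 ± 0.20 (SE), adjusted p = 3.64e-04. MYRF, a membrane-released transcription factor known from myelination, stood at 25.5 and 19.9 CPM in control shRNA and 8.68 and 10.5 CPM in DMSO, a log2 change of 1.24 ± 0.20 (SE), adjusted p = 2.88e-04. BMPER, which binds bone morphogenetic proteins, stood at 24.4 and 26 CPM in control shRNA and 7.47 and 14.4 CPM in DMSO, a log2 change of 1.21, with DMSO replicate 1 low. ZNF114, a zinc-finger protein, RIMS2 (a synaptic scaffold), INSYN2B and LRRC20 were at 1.17, 1.15, 1.05 and 1.03.

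Genes nearly absent from a group were mostly those whose reads are hard to place. In DMSO, SULT1A4 had 3 and 3 counts against 38 and 43 in control shRNA, and SMG1P3, a pseudogene of the kinase SMG1, had 1 and 0 against 35 and 25, but 97.7% and 99.1% of their 50-base stretches occur elsewhere. BORCS7-ASMT had 0 counts in both DMSO libraries and 27 and 49 in control shRNA, with 98.2% shared, and RDUR 0 and 0 against 19 and 59, with 91.8% shared. In control shRNA, PDCD6-AHRR had 0 and 0 counts against 56 and 37, with 96.7% shared, CDRT4 3 and 0 against 292 and 34, with 82.1% shared, and PMS2CL 3 and 0 against 32 and 20, with 100% shared. TIE1, an endothelial receptor kinase, had 2 and 2 counts in DMSO and 21 and 28 in control shRNA, and KYNU, kynureninase of tryptophan breakdown, had 1 and 2 counts in control shRNA and 19 and 16 in DMSO.

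Whether these differences recur was read in libraries that share none of the samples, the 4 shEZH2 and shE2F1 libraries against the 2 GSK126 libraries, which also set transduced and selected cells against cells that met neither. There the effects of the hairpins and of GSK126 come on top, and knockdown and transduction cannot be told apart. Of the 14481 genes tested in both, 1218 (8.41%) were called lower and 399 (2.76%) higher in the knockdowns. Of the 168 genes lower in control shRNA that were tested there, 87 (51.8%) were called lower and 4 (2.38%) higher. Those 87 are 7.14% of the 1218. For the higher genes, 43 were tested there, of which 14 (32.6%) were again called higher and 3 (6.98%) lower, and the 14 are 3.51% of the 399. All 4 knockdown libraries lay below both GSK126 libraries for 109 of the 168 (64.9%), against 21.3% of all genes, and above them for 15 of the 43 (34.9%), against 17.7%. Replicates of GSK126 and DMSO deviated together across 11281 genes (r = 0.758, with genes not independent). Those of control shRNA did not do so with shEZH2 (r = 0.032) or shE2F1 (r = 0.06). By their treatments, GSK126 and DMSO belong to 1 experiment and control shRNA and the knockdowns to another. Both comparisons thus set libraries of 1 experiment against libraries of the other.

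By list, sterol genes were called lower for 12 of 25 there, fatty acid genes for 9 of 20 and folding genes for 5 of 25, with medians of -0.86, -0.75 and -0.53. Among all genes tested in both, 8.41% were called lower. Immediate early genes were called lower for 6 of 22 and cytokine genes for 7 of 28. The integrated stress response had 9 of 27 called lower and 2 higher, with a median of -0.45, and hypoxia targets 6 of 27 lower and 3 higher, with a median of -0.12. Whether lists differ in this was not tested. FOS changed by -4.12 there, IL6 by -3.55, HSPA5 by -1.94 and SCD by -4.25. SCD stood at 87.8 and 96.8 CPM in shEZH2 and 78.1 and 80.5 CPM in shE2F1, under control shRNA, and at 1779 and 1468 CPM in GSK126, level with DMSO. By contrast DUSP1 changed by -0.19 (adjusted p = 0.409), JUNB by 0.08 (adjusted p = 0.63) and EIF2AK3 by -0.09 (adjusted p = 0.554). S and G2/M phase genes, above 0 in control shRNA, had medians of -0.11 and -0.18, and here the 2 knockdowns lay apart. Against the DMSO mean, S phase medians were -0.11 and -0.36 in shEZH2 and 0.31 and 0.36 in shE2F1. In GSK126 they were 0.07 and 0.15. G2/M medians were -0.01 and 0.08 in shEZH2, -0.35 and -0.33 in shE2F1, and -0.04 and 0.07 in GSK126. Hypoxia medians were 0.07 and 0.50 in shEZH2 and -0.66 and -0.80 in shE2F1. Histones had 10 of 17 called higher in the knockdowns against GSK126 and a median of 1.35.

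**Figure D5:**
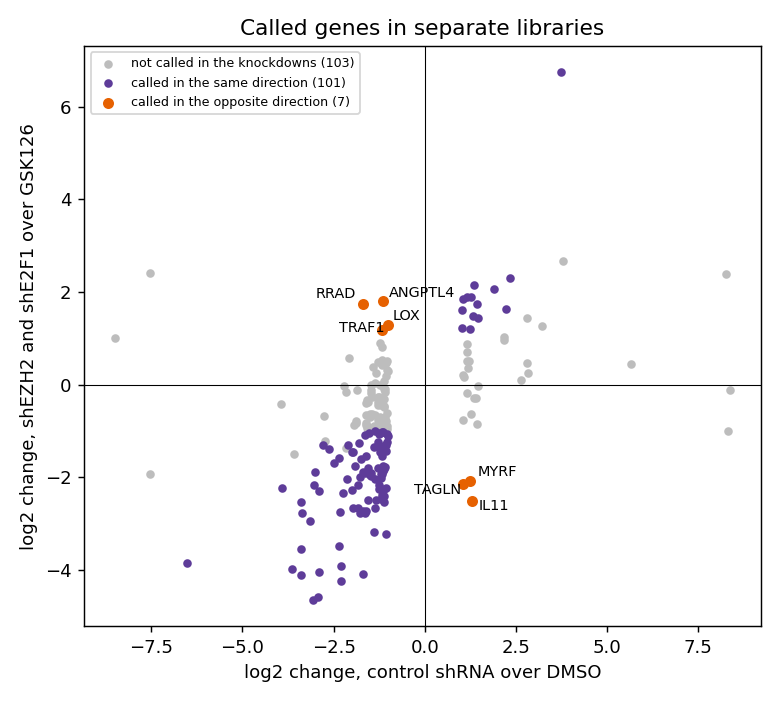
Log2 change in control shRNA against DMSO (x axis) and in shEZH2 and shE2F1 against GSK126 (y axis) for the called genes tested in both, which share no library. Purple points are called in the same direction in both (101), orange points in opposite directions (7, named) and grey points in the first comparison only.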

How the data were processed

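RNA was measured by poly(A) RNA-seq with a strand-specific kit, and the authors deposited 1 table per sample with expected counts per gene from RSEM, which estimates them from reads aligned to GRCh38 (hg38) with an Ensembl annotation. The submitters' processing notes name STAR 2.7.2b and RSEM 1.3.1. Effective lengths in the deposited files were used in 1 alternative, and the deposited TPM and FPKM values were not used. Of 18 sample records 8 repeat another, and each of the 10 distinct libraries was counted once. The 62703 gene IDs were named with GENCODE release 44, which held 62625.

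Expected counts were rounded to whole numbers. Genes were filtered with filterByExpr, scaled by TMM and tested with edgeR 4.0.16 (glmQLFit, glmQLFTest, R 4.3.3) across all genes with Benjamini-Hochberg adjustment. Calls follow the study's limits, a fold over 2 with an adjusted p below 0.01. The study's tool, DESeq2 (1.42.0), was an alternative. Log2 changes are control shRNA over DMSO, or the mean of shEZH2 and shE2F1 over GSK126, with no covariate. On simulated counts for 14400 genes of the first comparison, 94.44% of genes changed by 1.5 on the log2 scale, 98.67% by 2 and 100% by 3 were called, with 0 false calls. The simulated counts used the spread fitted to these libraries, changed only genes above a low count, and held no effect of replicate, fragment length or experiment. They check the fitting and do not measure false calls in the real libraries. Intervals for counts of 0 use 3 counts and cover counting error only. Alternatives were another scaling, other filters, all 10 libraries in 1 fit, a replicate block, an effective length offset, a correction for GC content and length, GSK126 in place of DMSO, protein-coding genes only, and leaving out each library.

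Named genes were, in each direction, up to 15 called genes with the largest change among those with a mean of at least 200 counts and no overlap between groups, up to 5 with at most 3 counts in both libraries of a group, members of 46 gene lists, and EZH2, E2F1, SUZ12 and EED. The members and lists were chosen with earlier results of these data known. Lists are described by counts and medians, without a set test, and some members are counted but not reported here by name. Shared sequence is the percent of a gene's 50-base stretches found in another gene. Replicate numbers of control shRNA and DMSO did not pair the samples (r = 0.069 between the deviations over 11281 genes). Promoters were 250 bases before the start in RefSeq's GRCh38.p14, of which up to 150 are printed.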

Additional observations from a re-analysis of the deposited data

Results flagged for a closer look

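Chosen after the data were seen, a test of the difference between the 2 comparisons, which share no library, was run in 1 edgeR fit of all 10 libraries for genes called in opposite directions. There were 7, each given here as its log2 change in control shRNA against DMSO, in the knockdowns against GSK126, and the difference. Since these genes were picked for their opposite calls, the differences describe them.

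Lower in control shRNA and higher in the knockdowns were 4. RRAD, a small GTPase of muscle, was at -1.70 and 1.74, a difference of -3.43. ANGPTL4 was at -1.15 and 1.80, a difference of -2.94, TRAF1, an adaptor of TNF receptors, at -1.17 and 1.18, a difference of -2.34, and LOX at -1.02 and 1.29, a difference of -2.30. Higher in control shRNA and lower in the knockdowns were 3. TAGLN, an actin-binding protein of smooth muscle, was at 1.06 and -2.15, a difference of 3.22, MYRF at 1.24 and -2.08, a difference of 3.33, and IL11 at 1.29 and -2.50, a difference of 3.79. The adjusted p of the differences ran from 2.54e-06 for IL11 to 1.82e-04 for TAGLN.

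For IL11 and RRAD both knockdowns lay on the same side of GSK126. IL11 stood at 17.5 and 15.8 CPM in shEZH2, 11 and 10.8 CPM in shE2F1 and 65 and 87.8 CPM in GSK126, beside 147 and 134 CPM in control shRNA. RRAD stood at 142 and 207 CPM in shEZH2, 45.5 and 51.1 CPM in shE2F1 and 23.6 and 31.2 CPM in GSK126. The loss of EZH2 or E2F1 in these libraries, and its part in the differences, was not tested.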

How the results depend on the processing

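Against 216 genes called in control shRNA and DMSO, DESeq2 called 141 (140 of them shared), the fit of all 10 libraries 142, the effective length offset 133 and the GC content and length correction 132. Without a filter 350 were called, and at an adjusted p under 0.05 with no limit on the fold 1054. With a replicate block 343 were called (216 shared, 85 higher), and with the block and the GC correction 329, although the replicate numbers do not pair these samples. Leaving out 1 library gave 150 to 509, with the highest count without control shRNA replicate 1 and the lowest without DMSO replicate 1. GSK126 in place of DMSO gave 288, of which 149 were shared. In the second comparison 1752 genes were called, 7418 at an adjusted p under 0.05 with no limit on the fold, 1402 to 1824 without 1 library, and 1667 with the replicate block. The cause of these moves was not tested.

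Of 91 named genes none changed direction in any of 15 alternatives, and 36 kept their call in all. DESeq2 lost 23, the GC content and length correction 26 and the fit without control shRNA replicate 2 also 26.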

Other observations

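Chosen after their values were seen, ENG, TIE1 and ECSCR, genes best known from endothelial cells, had their highest counts among the 10 libraries in control shRNA. ENG, the TGF-beta coreceptor endoglin, had 28 and 40 counts in control shRNA, 1 and 6 in DMSO, and 0 to 9 in the other 6 libraries. TIE1 had 21 and 28 counts in control shRNA and 1 to 6 in the other 8 libraries. ECSCR, an endothelial surface protein, had 41 and 44 counts against 4 to 16. Their log2 changes against DMSO were 3.31 ± 0.62 (SE), adjusted p = 0.00175 for ENG, 3.62 ± 0.67 (SE), adjusted p = 0.00149 for TIE1 and 2.65 ± 0.50 (SE), adjusted p = 0.00195 for ECSCR, by edgeR. FLI1, a transcription factor of blood and endothelium, had 149 and 122 counts in control shRNA, 55 and 62 in DMSO, and 126 and 129 in shE2F1. Defining markers of endothelial cells were at or near 0, with CDH5, CLEC14A, ERG and EMCN at 0 counts in all 4 libraries, and PECAM1 had 8 and 5 counts in control shRNA against 16 and 18 in DMSO. Other genes of endothelium were expressed in every group and were not called. KDR had 113 and 96 counts in control shRNA, 74 and 63 in DMSO, and 257 and 154 in shE2F1, EGFL7 had 451 and 354 against 406 and 484 in DMSO, ROBO4 578 and 525 against 482 and 484, and ESAM 4295 and 3893 against 3160 and 3655.

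Extracellular matrix, TGF-beta, YAP target and matrix protease genes had no called gene by edgeR or DESeq2, unlike the integrin and epithelial junction lists described above. At an unadjusted p under 0.05, 9.59% of all genes were higher and 12.6% lower. At that limit, 7 of 27 tested extracellular matrix genes were higher and 2 lower, and 4 of 24 TGF-beta genes higher and 5 lower. Of 28 YAP targets 4 were higher and 3 lower, and of 19 matrix proteases and inhibitors 2 were higher and 4 lower. Without 1 library, up to 1 gene in each direction was called in the matrix, TGF-beta and protease lists (without either DMSO replicate for TGF-beta, without DMSO replicate 1 for matrix, without either control shRNA replicate for proteases). With GSK126 in place of DMSO, 5 TGF-beta genes (2 higher, 3 lower), 3 proteases and 1 matrix gene were called. At an unadjusted or adjusted p under 0.05, 7 of 24 lysosome and autophagy genes were lower and 0 higher. At the adjusted limit, 4.63% of all genes were lower and 2.56% higher. Of the 24, 0 were called by either tool, with a median of -0.16. Without control shRNA replicate 1, 3 of them were called lower, and without DMSO replicate 1 a single one. Median changes by chromosome ran from -0.085 on chromosome 18 to 0.061 on chromosome 21.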
